A study of Mus musculus with 4 samples.

Results

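Chromatin occupancy by tagged MafG was examined around 10 acute phase genes of mouse liver: Saa1, Saa2, Saa3, Saa4, Lcn2, Orm1, Orm2, Crp, Apcs and Itih4. The members are these genes as RefSeq places them on the mm10 build. Every deposited peak whose midpoint lay inside or within 50 kb of one of them was taken, and a peak near several of them was counted once. This gave 28 distinct peaks at 6 loci, out of 68763 peaks in the whole list, and the 10 genes stand among 21887 protein-coding genes.

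The series used chromatin immunoprecipitation with sequencing on livers of C57BL6/J mice. It holds 2 libraries from livers that overexpressed MafG fused to BLRP, a short peptide that an antibody to the Avi-tag recognises (treatment label "Ad BLRP MAFG"), and 2 from livers given the tag without MafG ("Ad BLRP Control"). The mouse's own Mafg gene was present in both groups, and the labels give no age, no time after treatment and no inflammatory stimulus. Both treatment labels begin with "Ad", so no library shows livers without that treatment. Whole livers were used, so tags can come from any liver cell type, and no library carries tagged MafG at its native level. The deposited result is 1 peak list that sets 1 collection of BLRP-MafG tags (20406492 tags) against 1 collection of control tags (about 1.72e+07, implied by the deposited ratios). The file does not say which libraries each collection holds and gives no value per library. Differences between animals therefore could not be tested, and the intervals below are exact 95% intervals of tag counting alone. The list holds binding and no RNA, so whether an acute phase response was under way in these livers was not measured.

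The acute phase response is the change in secreted proteins that the liver makes during infection or injury. Interleukin-6 acts through STAT3, interleukin-1 acts through NF-kB, and C/EBP factors join both on the promoters of the induced genes. MafG is a small MAF protein that binds the MAF recognition element (MARE), alone or paired with CNC factors such as NRF2 and BACH1, and it has no activation domain of its own.

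Of the 9 members with a promoter sequence in the RefSeq table, 2 had part of a peak in the promoter window, which runs from 250 bases before to 50 bases after the start site (mm10, GRCm38.p6). Among all protein-coding genes with an entry the share was 12.9%. These were Saa2 and Itih4, and the bases under their peaks are shown because they are the only promoter stretches of the listed genes that a peak covered. The matching stretch of Saa1, which had no listed peak, is shown beside that of its near copy Saa2. Capitals mark a match to one of the 8 motifs searched, which are named below. The Saa2 stretch is chr7:46751583-46751716 on the plus strand, 250 to 117 bases before the start site. The Saa1 stretch is chr7:46743096-46743229 on the minus strand, and the Itih4 stretch is chr14:30886254-30886454 on the plus strand, 222 to 22 bases before the start site.
Saa2: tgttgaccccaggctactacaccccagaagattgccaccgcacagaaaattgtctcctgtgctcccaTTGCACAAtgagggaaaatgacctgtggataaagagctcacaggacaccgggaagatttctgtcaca
Saa1: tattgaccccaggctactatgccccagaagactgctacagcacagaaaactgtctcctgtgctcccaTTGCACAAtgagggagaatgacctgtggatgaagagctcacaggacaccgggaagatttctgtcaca
Itih4: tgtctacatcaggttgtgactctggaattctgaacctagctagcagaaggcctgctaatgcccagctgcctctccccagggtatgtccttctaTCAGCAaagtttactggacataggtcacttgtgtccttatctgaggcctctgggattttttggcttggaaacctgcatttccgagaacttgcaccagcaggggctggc

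All 10 genes had a peak within 50 kb, as did 93.5% of protein-coding genes, so this count alone says little about them. Within 10 kb the count was 8 of 10 (74.5% of all genes), without Crp and Apcs. Within 1 kb it was 5 of 10 (56.8% of all genes): Saa2, Saa4, Orm1, Orm2 and Itih4. A peak midpoint lay inside only 3 of the listed genes, Saa4, Orm1 and Orm2 (50.5% of all genes). The listed genes are short, with a median length of 3266 bp against 17169 bp for all genes, and the part of length in this count was not tested.

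The height of a peak is given as its normalized tag count, the BLRP-MafG tags scaled by the authors to 10000000 in total. Most of the 28 peaks were of ordinary height. Their median was 16.2 with quartiles of 11.8 and 19.4, against a median of 12.3 with quartiles of 7.84 and 23.5 for all peaks. Only 3 stood above 50 (10.7%, against 9.75% of all peaks), and the remaining 25 were at 31 or lower. One peak near Lcn2 held 35% of the summed normalized tag count of 767. Of the 28 peaks, 4 lay inside a listed gene, 12 inside another protein-coding gene and 12 outside protein-coding genes. A listed gene was the nearest gene for 9 of them, and another gene was nearer for the other 19.

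**Figure D1:**
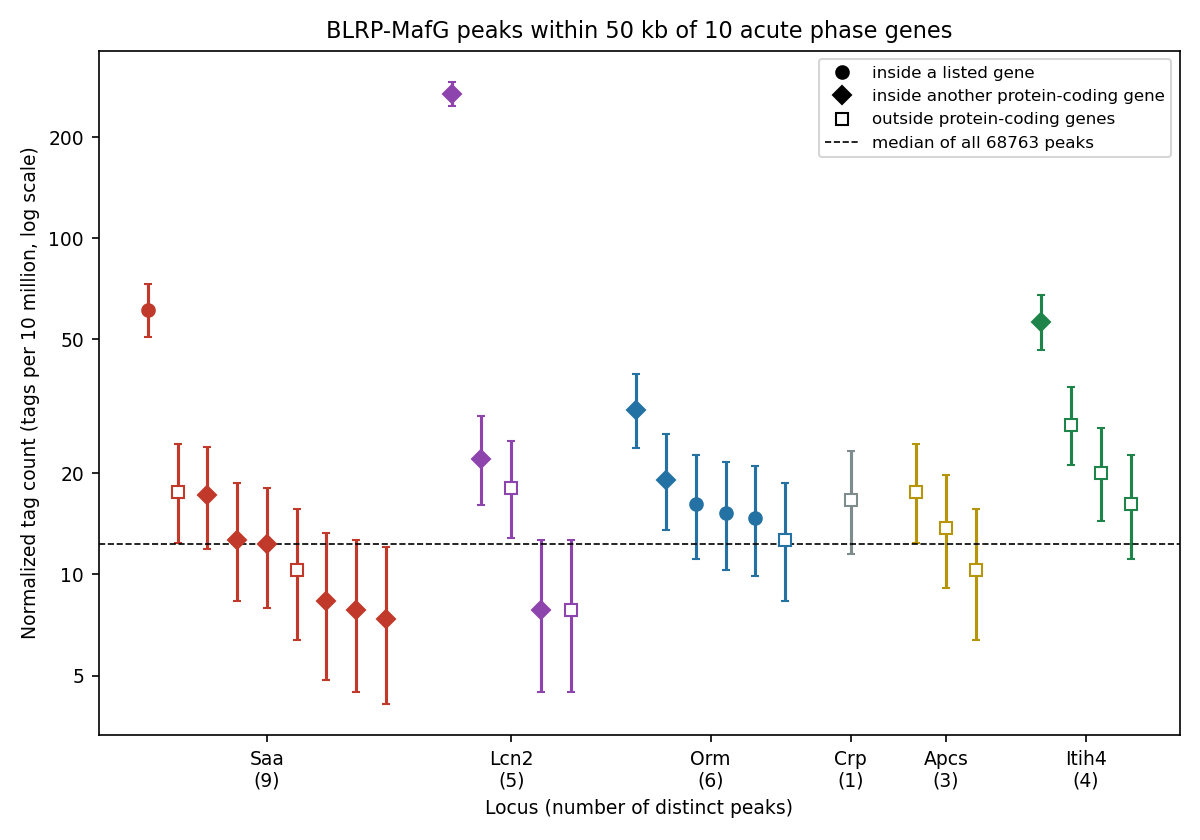
Normalized tag count (log axis) of the 28 distinct peaks by locus, with exact 95% Poisson intervals as bars; symbols show whether the peak lies inside a listed gene, inside another gene or outside genes. The Lcn2 locus holds the highest peak, at 268.5, and the Saa and Itih4 loci hold one each above 50. The rest run from 7.35 to 30.9, on both sides of the dashed median of all peaks, 12.3.

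Lcn2 encodes lipocalin-2, which withholds iron from bacteria by binding their siderophores. Its locus (chr2:32384637-32387739) had the highest peak of the 28, at chr2:32381221-32381421, with a normalized tag count of 268.5 (247 to 292). The control held 2 tags there, and the ratio to control was 231 (63.7 to 1913). It ranked 382 of 68763 peaks and stood 152.57-fold over the surrounding 10 kb in the authors' deposited table. By the highest peak within 50 kb, Lcn2 stood above 97.2% of protein-coding genes.

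That peak did not lie in Lcn2. It lay 3316 bp past the end of the gene, 6418 bp downstream of its start site, and inside the neighbouring gene 1110008P14Rik, 594 bp downstream of that gene's start site. The list gives no measure of which gene, if either, it acts on. The next highest peak of the locus, at chr2:32415881-32416081 inside Slc25a25, had a normalized tag count of 22.1 (16.1 to 29.5) and 0 control tags. Its ratio to control was 12.7 when 3 control tags are taken as the floor, and the lower limit of the exact interval was 9.87. The first peak held 12.2 times its tags (8.98 to 16.9). The other 3 peaks, around Ptges2, a prostaglandin E synthase gene, had 18.1, 7.84 and 7.84. No listed peak touched the Lcn2 promoter window.

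The 4 serum amyloid A genes lie together on chromosome 7 and encode apolipoproteins of high-density lipoprotein. Saa1 and Saa2 are the strongly induced liver forms, Saa3 is also made outside the liver, and Saa4 is the constitutive form. RefSeq lists Saa2 as a synonym of Saa1 and the reverse, so older reports can use the names the other way round. Their joined window held 9 distinct peaks with normalized tag counts from 7.35 to 61.3 and a median of 12.3, the median of all peaks. The 5 peaks nearest the start or inside of Hps5 and Tph1 belong to the flanks, and 4 lay between the first and last Saa gene or within 5 kb of them.

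The highest Saa peak lay inside Saa4, the constitutive member. At chr7:46731275-46731475, 1228 bp downstream of the Saa4 start site, the normalized tag count was 61.3 (51 to 73). It was 3.47 times (2.38 to 5.18) the tags of the next highest Saa peak. The same peak is the highest within 50 kb of all 4 Saa genes, at 9122 bp from Saa1, 20458 bp from Saa2 and 11760 bp from Saa3. It alone puts each of them above 71.3% of protein-coding genes.

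The control was also high at this position. It held 9 tags, where the other 27 peaks held 3 or fewer, and 0.205% of all listed peaks had 9 or more. The ratio to control was 11.7 (5.98 to 26.2), close to the 10-fold excess that a listed peak had to pass. The ratio interval of the Lcn2 peak lay wholly above it. Other peaks were nearer to that limit. Their ratios were 10.1 past the end of Saa2, 10.1 at the peak nearest to Apcs and 11 inside the pseudogene Gm11212. The Saa4 peak stood 46.76-fold over the surrounding 10 kb in the authors' deposited table. Among peaks with a deposited fold of 20 or more, every listed gene still had one within 50 kb (88.4% of all genes). The highest of these was 12.7 for Saa1 and for Saa2, 12.3 for Saa3 and 8.33 for Saa4. The peaks of 12.7 and 8.33 had 0 control tags, which the deposited fold enters as 0.5. Against a floor of 3 control tags their ratios were 7.31 and 4.78. The Apcs peak of 13.7 likewise had 0 control tags, with a ratio of 7.87 against the floor.

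At Saa2 itself the peak was low. The peak over the promoter, at chr7:46751516-46751716 with its midpoint 217 bp upstream of the start site, had a normalized tag count of 10.3 (6.37 to 15.7). The control held 1 tag, a ratio of 17.7 (2.85 to 733). A second peak, at chr7:46757110-46757310, lay 2897 bp past the end of Saa2 with 17.6 (12.4 to 24.4) and 3 control tags. Both intervals overlapped, so the 2 peaks could not be ordered at this depth.

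Saa1 had no listed peak within 1 kb, and its nearest lay 8435 bp away, at the Saa2 promoter. The Saa1 and Saa2 promoter windows matched at 95.3% of aligned positions, with 12 differing bases and 65 identical bases in the longest run. In the stretch printed above 125 of 134 bases were the same. No source used here gives the read length or the handling of reads that map to several places, so the assignment of reads between these copies is uncertain and was not tested. Saa3 and Saa4 promoter windows matched those of the other Saa genes at 43.3% to 50.9%. Saa3 had its nearest peak 4594 bp away, inside Saal1, at 8.33 (4.85 to 13.3).

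**Figure D2:**
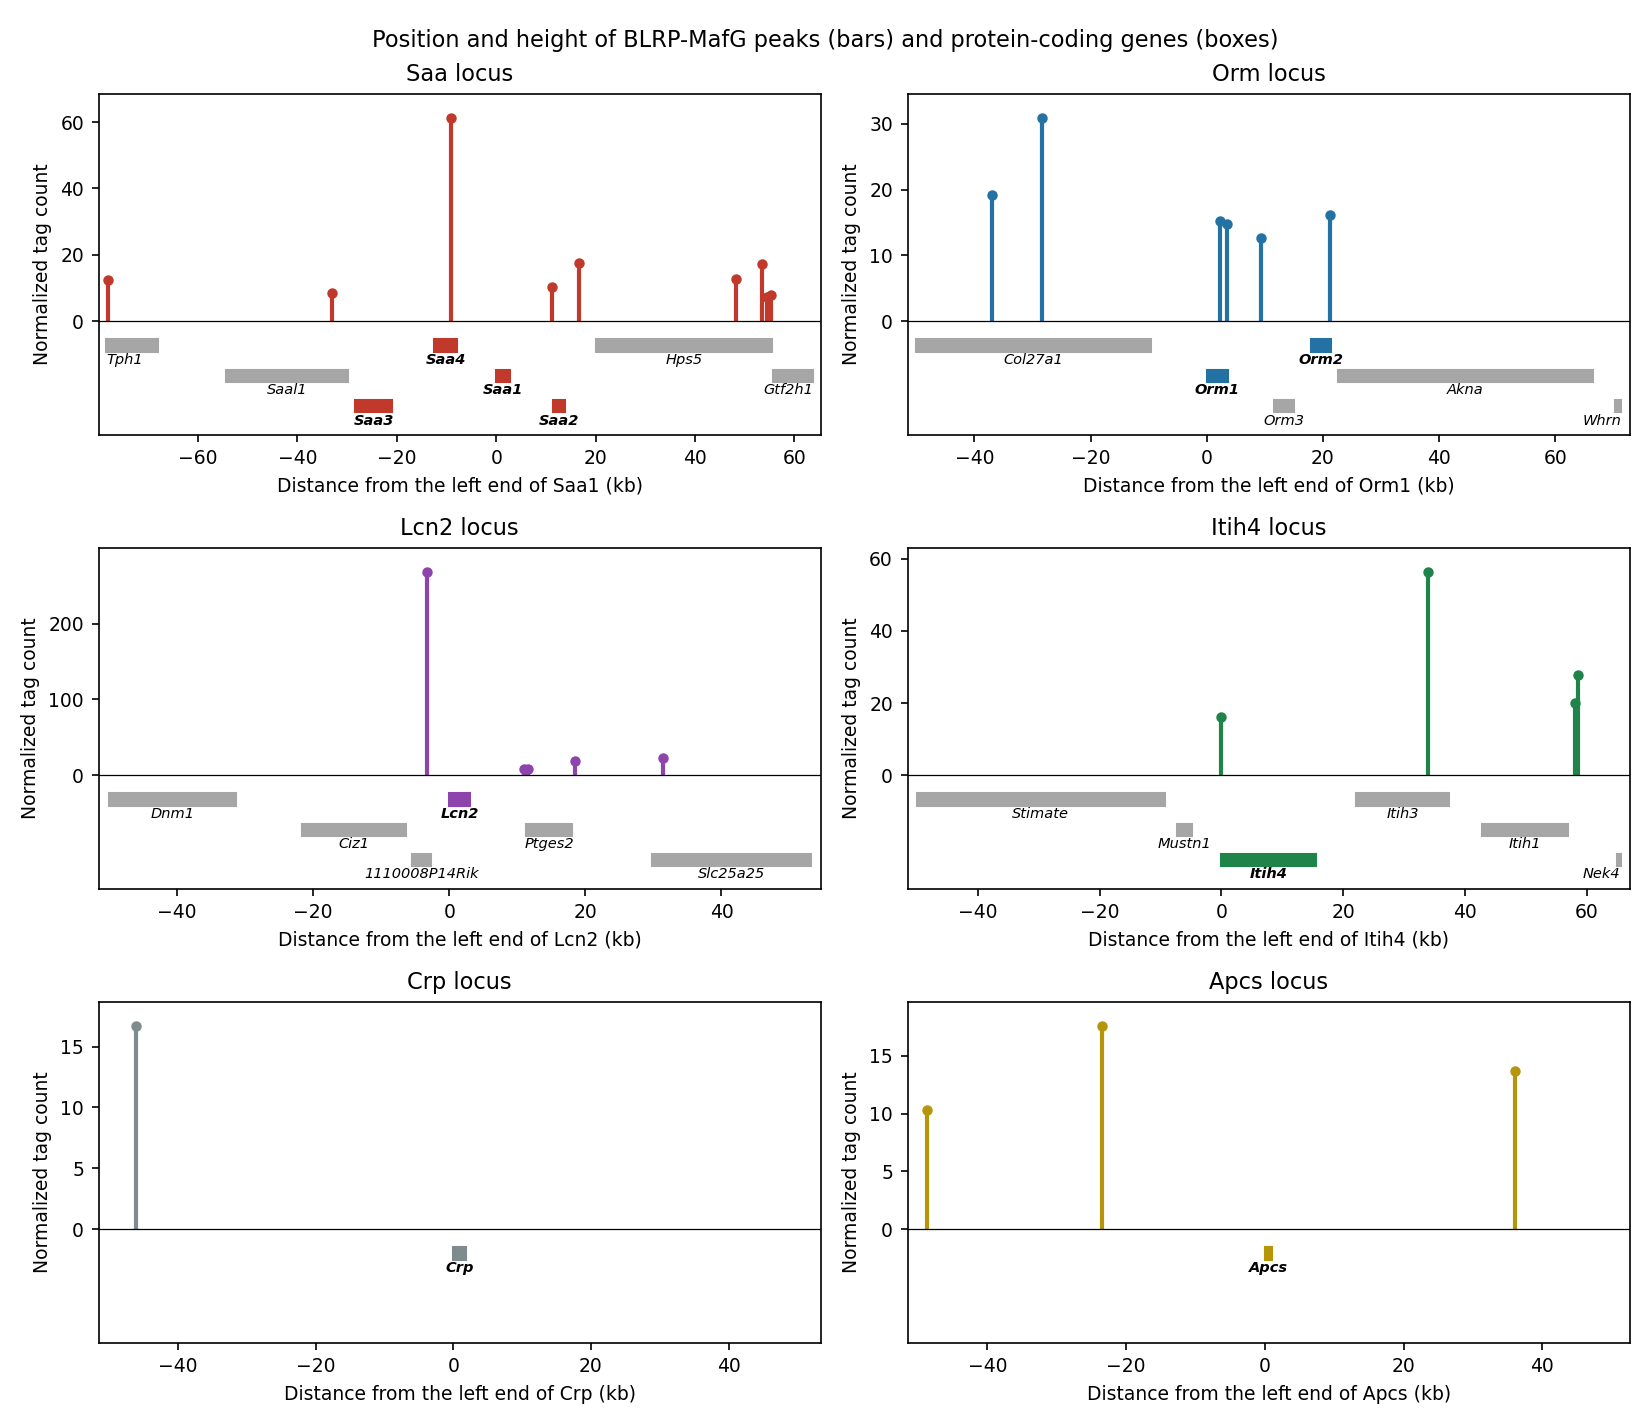
Normalized tag count of each peak (vertical bars, linear axis, scaled per panel) against distance in kb from the left end of a listed gene, with protein-coding genes as boxes and the listed genes in colour. The highest bars of the Lcn2, Orm and Itih4 panels stand over or beside neighbouring genes, and the Crp and Apcs panels are empty near the gene.

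Orm1 and Orm2 encode α1-acid glycoprotein, a plasma protein that binds basic drugs and dampens immune cells. Orm3 and the pseudogene Gm11212 lie between them on chromosome 4. The joined window held 6 peaks with a narrow range, from 12.7 to 30.9. Orm1 held 2 peaks, at 15.2 (10.3 to 21.6) and 14.7 (9.92 to 21), each with 1 control tag. Orm2 held 1, at 16.2 (11.1 to 22.7) with 2 control tags.

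Of these, 3 peaks lay at a like place in 3 neighbouring units. The Orm1 peak at chr4:63348031-63348231 lay 32 bp inside the right-hand end of the gene, and the Orm2 peak at chr4:63365743-63365943 lay 34 bp inside its right-hand end, which is its 3′ end. The peak at chr4:63353839-63354039, with 12.7 (8.32 to 18.7), lay 18 bp inside the right-hand end of the pseudogene Gm11212. The 3 intervals overlapped. Orm3 had no listed peak within 5567 bp of its right-hand end. Among all protein-coding genes, 1.81% had a peak midpoint within 50 bp of that end. This position was singled out after the values were seen. The Orm2 and Orm3 promoter windows matched at 86.2% of aligned positions, and the assignment of reads between the Orm copies was not tested.

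The highest peak of the Orm window, 30.9 (23.7 to 39.5) with 1 control tag at chr4:63316098-63316298, lay inside the collagen gene Col27a1, 28358 bp from Orm1. No Orm2 promoter base was covered by a listed peak, and the RefSeq table used gave no promoter for Orm1. A far higher peak, 170.5 at chr4:63293352-63293552, lay 51104 bp from Orm1 and so just outside the window. The peak just inside it, 37014 bp from Orm1, had 19.1.

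Itih4 encodes an inter-alpha-trypsin inhibitor heavy chain of plasma. Its promoter peak, at chr14:30886254-30886454 with the midpoint 122 bp upstream of the start site, had a normalized tag count of 16.2 (11.1 to 22.7). The control held 2 tags, a ratio of 13.9 (3.56 to 120). Among the 9 listed genes with a known start site this was the peak closest to one, but not a high one, with 61.8% of all peaks below it.

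The higher peaks of the locus lay inside or near the neighbouring heavy-chain genes, and the list gives no measure of which gene they act on. Inside Itih3, at chr14:30920263-30920463, the normalized tag count was 56.4 (46.5 to 67.6) with 1 control tag, a ratio of 97 (17.1 to 3865). A pair at 20.1 (14.4 to 27.3) and 27.9 (21.2 to 36.2) lay 1191 and 1713 bp upstream of the Itih1 start site. The Itih4 gene body held no listed peak. The nearest peak left out by the 50 kb limit lay at 50056 bp, at 5.88.

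Crp and Apcs encode the 2 short pentraxins, C-reactive protein and serum amyloid P component, of which the latter is the main acute phase pentraxin of mice. Both genes lay far from any listed peak. The nearest to Crp was 46138 bp away, farther than for all but 7.1% of protein-coding genes, at chr1:172651818-172652018 inside the long non-coding gene Gm35601. It had a normalized tag count of 16.7 (11.5 to 23.3) and 1 control tag.

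Apcs had 3 peaks in its window, none within 20 kb. The nearest lay 23457 bp away at chr1:172870404-172870604 with 17.6 (12.4 to 24.4) and 3 control tags, a ratio of 10.1 (3.2 to 51.4). It stood 58.8-fold over the surrounding 10 kb in the authors' deposited table, above every other peak of the 28 except that of Lcn2. The others had 13.7 and 10.3, each with 0 control tags, and the first covered the start site of the long non-coding gene Gm35686. A gene without a listed peak may still hold signal that missed the caller's limits.

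Ordered by the highest peak within 50 kb, the loci ran Lcn2, Saa, Itih4, Orm, Apcs and Crp. The Lcn2 peak held 4.38 times (3.6 to 5.37) the tags of the Saa4 peak. The Saa4 and Itih3 peaks did not differ beyond counting error, with a ratio of 1.09 (0.837 to 1.41). The Itih3 peak held 1.83 times (1.33 to 2.52) the tags of the highest Orm peak, which held 1.75 times (1.14 to 2.71) those of the highest Apcs peak. Apcs and Crp did not differ beyond counting error, at 1.06 (0.644 to 1.74). The median of the highest peak was 58.8 over the 10 genes, in which 1 Saa peak counts 4 times, and 43.6 over the 6 loci, against 33.8 over all protein-coding genes. The direction turned with a deposited fold of 20 or more, where the median over the 10 genes was 15.2 against 29.4, and with a window of 1 kb, where it was 5.15 against 7.84.

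**Figure D3:**
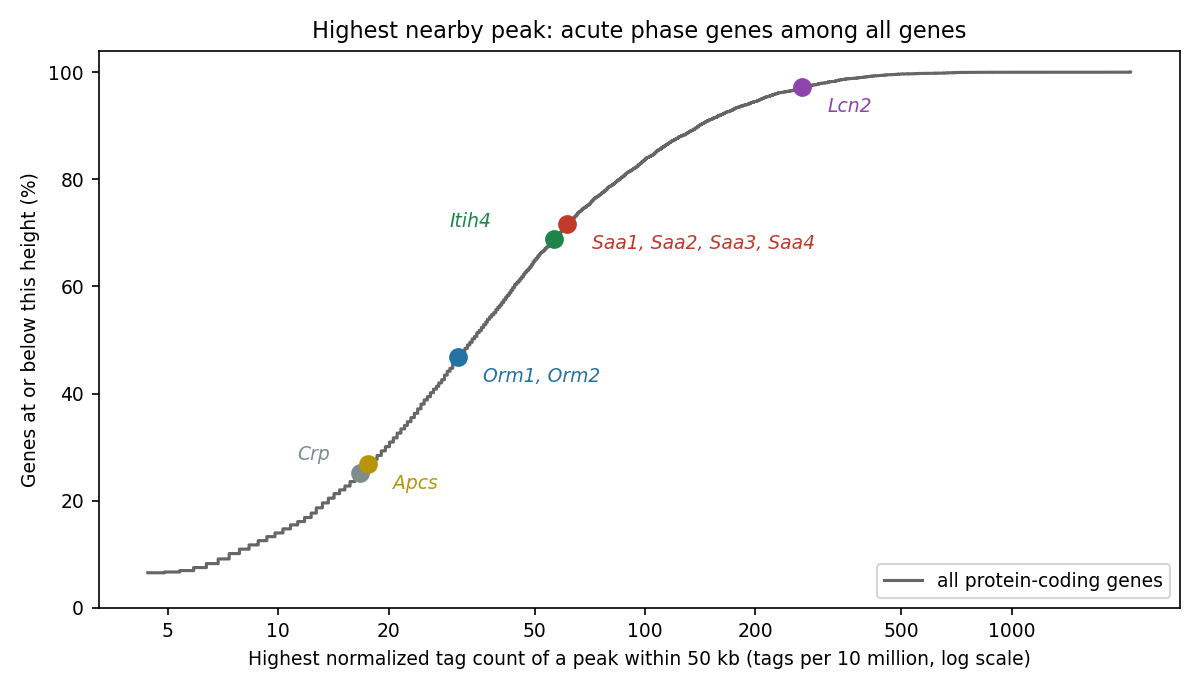
Share of all 21887 protein-coding genes (y axis, percent) whose highest peak within 50 kb is at or below a given normalized tag count (x axis, log scale), with the listed genes as points on the curve. Lcn2 lies near the top, the Saa genes and Itih4 stand above 71.3% and 68.6% of genes, Orm1 and Orm2 above 46.1%, and Apcs and Crp above 25.9% and 24.4%.

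Among the same 28 peaks, the deposited fold over control was 20 or more in 17 (60.7%), against 64.3% of all peaks, and 9 (32.1%) had 0 control tags, against 44.4%. All 9 are among the 17. The deposited fold enters 0 as 0.5, and against the floor of 3 control tags their ratios were 4.22 to 12.7. The floor was not used for peaks with any control tags, so their ratios cannot be ranked against these. Part of a promoter window was covered by 4 (14.3%), those of Saa2, Ptges2, Gm35686 and Itih4. Over 66301 peaks on chromosomes with promoter entries the share was 3.73%. Those peaks were not limited to the surroundings of genes, as the 28 were, so the shares are not like for like. The fold over the surrounding 10 kb had a median of 10.7, against 16.2 for all peaks. Per length, the joined windows held 4.09 peaks per 100 kb, from 0.981 around Crp to 6.32 around the Saa genes, against 3.13 over the joined windows of all protein-coding genes.

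Motifs were searched on both strands of the 9 promoter windows and of 21263 promoter windows of protein-coding genes. Bases of peaks outside promoter windows, among them the highest Lcn2 peak and part of the Saa2 peak, were not available and so not searched. No listed promoter held TGCTGANTC or TGCTGACGT, which begin the long MARE forms (1.11% and 0.249% of all windows), or TGACNNNGC, the core of the CNC and small MAF element (13%). The MARE arm TGCTGA, which both long forms contain, was found in Saa1, Saa2, Saa3 and Itih4 (18.1% of all windows). In Itih4 it lay under the peak, 129 bp before the start site. In Saa2 it lay 35 bp before the start site and outside the listed peak, as it did in Saa1, where no peak was listed.

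The C/EBP motif TTGCNNAA was found in 6 of 9 listed promoters, those of Saa1, Saa2, Saa3, Saa4, Lcn2 and Orm2, against 10.2% of all windows. In Saa2 it lay under the peak, 183 bp before the start site. The AP-1 pattern TGANTCA, which allows any base at its centre and can overlap the long MARE form, was matched in Orm2 and Crp (6.99% of all windows). The matches were TGAATCA in Orm2 and TGATTCA in Crp, so neither had the C or G of the consensus AP-1 site at its centre. The STAT3 element CTGGGAA was found in Apcs (11%), and the NF-kB motif GGGANTTCC in none (1.84%). Saa1 and Saa2 share most of their sequence and do not count as separate instances, and a match shows letters in a window, not a bound site.

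Other genes of the response mostly had a peak nearby as well. Of 43 genes in 3 further lists, all 43 had one within 50 kb (93.5% of all genes), 40 within 10 kb (74.5%) and 31 within 1 kb (56.8%). The median highest peak within 50 kb was 37.7 in 19 other positive acute phase genes, 89.9 in 6 negative acute phase genes, whose products fall during the response, and 46.1 in 18 genes of its signalling and transcription factors. These differences were not tested.

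Among the other positive acute phase genes, Il1rn, the interleukin-1 receptor antagonist, had a peak of 207.3 (188 to 228) at 14094 bp, and Serpina3n, a protease inhibitor, one of 189.2 (171 to 209) at 48740 bp, nearer to Gsc. Itih3 held the peak of 56.4 described above inside the gene. Hpx, which binds haem, had one of 52.9 at 43448 bp, nearer to Timm10b. The metallothionein genes Mt1 and Mt2 shared one of 51.5, nearer to Mt3.

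Of the negative acute phase genes, Ttr, the thyroxine carrier, had a peak of 165.6 (148 to 184) at 20780 bp, nearer to B4galt6. Alb held one of 126.4 (111 to 143) inside the gene, and Trf, the iron carrier transferrin, had one of 102.4 (89 to 117) at 2890 bp. Apoa1 followed with 77.4, at a peak nearer to Sik3, and Ahsg with 60.8. A peak of 100 or more lay within 50 kb of 3 of these 6 genes, of 2 of the 19 other positive genes, of 5 of the 18 signalling and factor genes and of 1 of the 10 listed genes, against 16.4% of all protein-coding genes.

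Among the signalling genes, Jak1, a kinase of interleukin-6 signalling, held a peak of 157.8 (141 to 176), and Nfkb1, an NF-kB subunit, one of 125 (110 to 141). Nr3c1, the glucocorticoid receptor, held one of 104.9 (91.3 to 120). Jak2 had one of 114.2 at 32742 bp, nearer to Plgrkt. Socs3, the feedback inhibitor of this pathway, had one of 100.5 (87.2 to 115) at 13627 bp, nearer to Pgs1. Jak1 had 16 peaks within 50 kb, Socs3 14 and Jak2 13, against a median of 5 for the listed genes and 5 for all genes. The window includes the gene itself, so longer genes have wider windows, and the part of length in these counts was not tested.

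**Figure D4:**
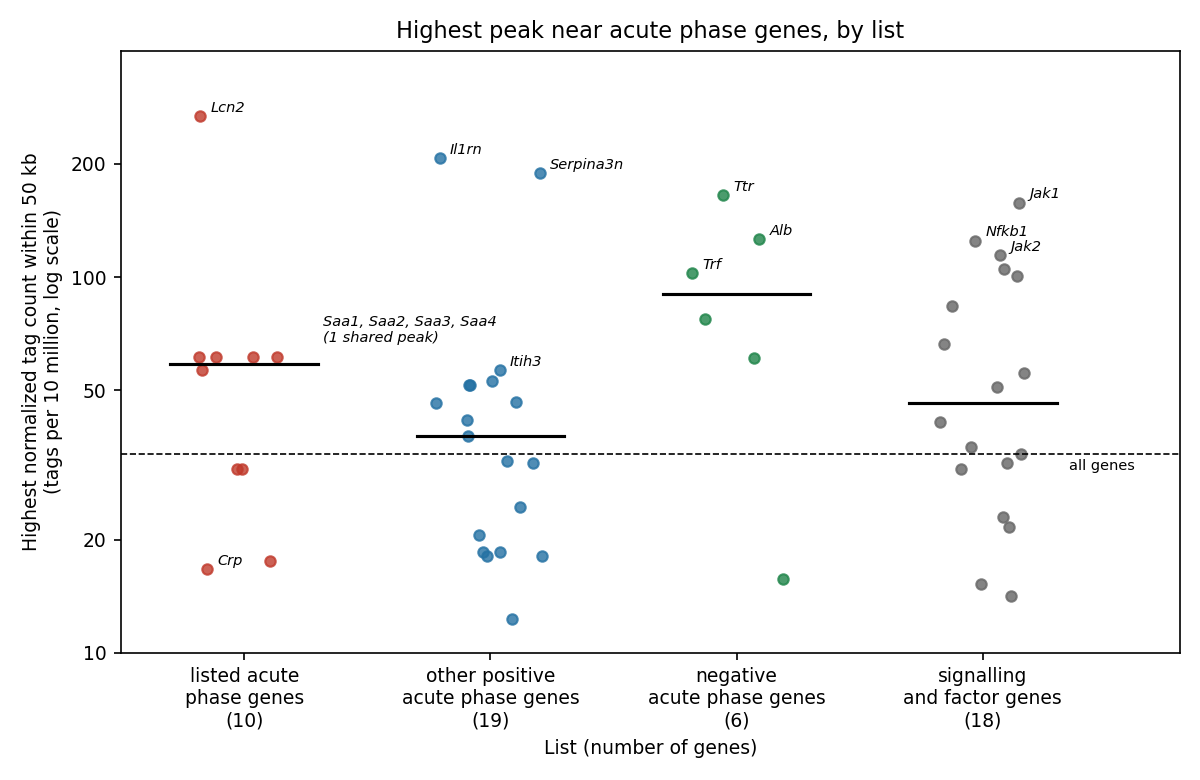
Highest normalized tag count of a peak within 50 kb (log axis) for each gene of the 10 listed acute phase genes and the 3 further lists; horizontal bars are medians and the dashed line is the median of all protein-coding genes, 33.8. The medians are 58.8, 37.7, 89.9 and 46.1 from left to right, and every list spans genes on both sides of the dashed line; at a deposited fold of 20 or more the first median was 15.2, below the 29.4 of all genes.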

How the data were processed

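Tags were aligned with Bowtie2 and processed with HOMER on the mm10 build, per the submitters' processing notes. No source used here gives their versions. In findPeaks, per the file headers, the authors set 1 BLRP-MafG tag collection against 1 control collection, with peaks of 200 bp at least 400 bp apart, a false discovery rate of 0.001, a 10-fold excess over control at p of 1e-06 and at least 4-fold more tags than the 10 kb around. The normalized tag count is a signal that the authors scaled to 10000000 tags, and control tags are deposited unscaled, with 0.5 for 0. The deposited fold values are linear ratios. The deposited p-values and peak score are the caller's and were not used further.

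Scaled back, 100% of the tag counts came within 0.1 of a whole tag, and these gave exact Poisson intervals and exact conditional binomial intervals of ratios (Python 3.11.15, SciPy 1.17.1). A ratio against 0 control tags used a floor of 3 tags. Both cover only the error of counting, and a peak held 25 BLRP-MafG tags in the median. Gene spans and promoter sequences came from RefSeq tables of GRCm38.p6, the assembly of mm10, which give no exons, so exons and introns were not separated. All 10 listed genes and all 43 further genes were matched by symbol. Promoter windows were aligned globally with Biopython 1.88 (match 1, mismatch -1, gap opening -3, gap extension -1). Functions were tested on simulated data.

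No set test was run. The members and the further lists were chosen with earlier results of these data known. Named were all listed genes, the nearest gene of a peak, and in each further list the 5 genes with the highest peak within 50 kb. Alternatives were windows of 10 kb and 1 kb, a fold of at least 20, overlap by any base, and 0.5 for 0 control tags.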

Additional observations from a re-analysis of the deposited data

How the results depend on the processing

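The number of distinct peaks was 28 with the 50 kb window, 12 with 10 kb, 6 with 1 kb, and 17 with a fold over control of at least 20. Counting any overlapping base added 1 peak, for 29. The number of listed genes with a peak was 10, also with a fold of at least 20, then 8 with 10 kb and 5 with 1 kb. For the listed genes, the median of the highest normalized tag count moved from 58.8 to 16.2 with 10 kb (13.7 over all genes), 5.15 with 1 kb (7.84 over all genes) and 15.2 with a fold of at least 20 (29.4 over all genes). The last falls below the median of all genes because the Saa4 peak, with its 9 control tags, drops out. The further 43 genes with a peak ranged from 43 to 31 over these settings. Counting 0 control tags as 0.5 made 9 ratios 6 times higher. All 28 ratios stayed inside their intervals, but this was fixed in advance. The intervals of those 9 have no upper limit, and the other ratios did not change. No paired analysis was possible because the file holds no value per library, and for the same reason leaving out a replicate was not run. The planned comparison of Saa and Orm proteins was not run, since no protein sequences were used here. Depth limits single low peaks: the ratio interval lay above 10 for only 2 of the 28.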
